A study of Mus musculus with 28 samples.

Results

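The glucose transporter and 9 enzymes of glycolysis were followed across the deposited data of mouse embryonic stem cells (mESCs) depleted of SSRP1, a subunit of the histone chaperone FACT. The 10 genes, *Slc2a1*, *Hk2*, *Gpi1*, *Pfkp*, *Pfkl*, *Aldoa*, *Pgk1*, *Eno1*, *Pkm* and *Ldha*, were taken by symbol from a named list, and each of them was among the 15384 genes with a value in every library. The cells were E14, an established mESC line grown in serum with leukaemia inhibitory factor. In the knockdown (KD) group, 4 libraries came from cells transfected with lentiviral vectors carrying a pair of short hairpin RNAs against *Ssrp1*, and in the control group 4 libraries came from cells given a scrambled hairpin. Both groups were left for 48 h and then selected with 2 µg/ml puromycin for 24 h, both received ERCC spike-in RNA, and total RNA was sequenced after ribosomal depletion. The KD therefore rests on 1 hairpin combination in 1 cell line. Untreated E14 cells gave 2 libraries of chromatin-associated RNA and the peak lists of SSRP1 and of the other FACT subunit, SUPT16. Early neural progenitor cells (NPCs, 3 libraries) were derived from E14 cells as embryoid bodies exposed to 1 µM retinoic acid over 4 days and then grown for 3 days without leukaemia inhibitory factor, and they enter here only through an average that the authors made over NPC and mESC libraries.

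Glycolysis turns glucose into pyruvate in the cytosol. Glucose enters through facilitative transporters, is trapped by hexokinase, is committed by phosphofructokinase, is cleaved into triose phosphates by aldolase, and yields ATP at phosphoglycerate kinase and pyruvate kinase. Lactate dehydrogenase then reduces pyruvate to lactate and regenerates NAD+. Pluripotent stem cells are known for a high glycolytic rate, and most steps are served by several paralogues whose use differs between tissues.

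The control libraries held between 4602278 and 6680919 reads on genes and the KD libraries between 9433193 and 19856032, so the KD values carried less counting error. Each of the 10 genes was covered by at least 369 reads in every library. *Ssrp1* was at 223 to 261 in the control libraries and at 24.1 to 28.9 in the KD libraries, in units of the library-size scaled value, which is the CPM (reads scaled to the library total) multiplied by a factor for each library. Its log2 fold change was −3.15 ± 0.07 (SE, n = 4 against 4). *Supt16* was at 319 ± 22 (SD, n = 4) in the control group and at 504 ± 20.2 in the KD group, a log2 fold change of 0.66 ± 0.06. This change was 0.03 after quantile normalisation, which gives each library the same distribution of values, and 1.69 on the scale of the spike-ins. These are RNA values, and the paper reports from mass spectrometry that SUPT16 protein was depleted along with SSRP1.

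A gene was called when its absolute log2 fold change exceeded 1 with an adjusted p below 0.01 (limma across all genes, Benjamini-Hochberg). On the library-size scale this held for 8.07% of all 15384 genes as higher and for 20.6% as lower. The corresponding shares were 48.1% and 7.03% with the spike-in scaling, 9.87% and 10.8% after quantile normalisation, and 2.23% and 30.5% in plain CPM, an alternative chosen after seeing the data. Of 8 pluripotency markers, 6 were called higher and none lower in the KD libraries, with a summed level of 1619 to 1738 in the control libraries and 4667 to 5154 in the KD libraries. Of these markers 8 were called higher with the spike-ins, but 1 after quantile normalisation and 2 in plain CPM. Markers of other cell types moved with the same groups on the library-size scale. Of 5 fibroblast markers with a value, 3 were called lower (summed level 58.5 to 76.6 in control, 22.7 to 25.7 in KD), as were 2 of 5 trophectoderm markers (943 to 1276, and 729.7 to 779) and 4 of 5 primitive endoderm markers (54.2 to 80.5, and 19.0 to 24.3). Most of the trophectoderm sum came from *Krt8* (control mean 675) and *Krt18* (368), neither of them called. The called *Cdx2* and *Hand1* had control means of 4.99 and 10.9. With the spike-ins 3 fibroblast, no trophectoderm and 1 primitive endoderm marker were called lower, and after quantile normalisation 3, 2 and 2. Of 5 neural markers, 2 were called lower and 1, *Tubb3*, higher, with a summed level of 83.7 to 107 in control and 145 to 155 in KD, and no neural marker was called lower with the spike-ins or after quantile normalisation. The neural sum rose through *Tubb3* (mean 33.6 in control, 108 in KD), and the other neural markers had lower means in KD. Markers of these cell types that were called lower had control means between 4.99 (*Cdx2*) and 24.5 (*Gata6*). The fibroblast markers *Dcn* and *Lum* and the trophectoderm marker *Elf5* had no value. In bulk RNA, fewer cells of a type and less RNA per cell cannot be told apart, and the part of these markers in the results below was not tested.

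All 10 genes were higher in the KD libraries, and for each of them the 4 KD libraries lay above the 4 control libraries. By the rule above 9 of the 10 were called higher, against 8.07% of all genes, while none was called lower, against 20.6% (28.6% in either direction). All 4 KD libraries lay above all 4 control libraries in 35.8% of all genes and below them in 37.5%. With the adjusted p alone and no fold threshold, all 10 genes passed as higher, against 35.4%. The median log2 fold change of the 10 was 1.40, with a range from 0.997 to 2.50, and the median of all genes was −0.03. Together the 10 genes took 0.439% to 0.466% of the summed values in the control libraries and 0.874% to 0.932% in the KD libraries. The plot of values by library shows this separation gene by gene.

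**Figure D1:**
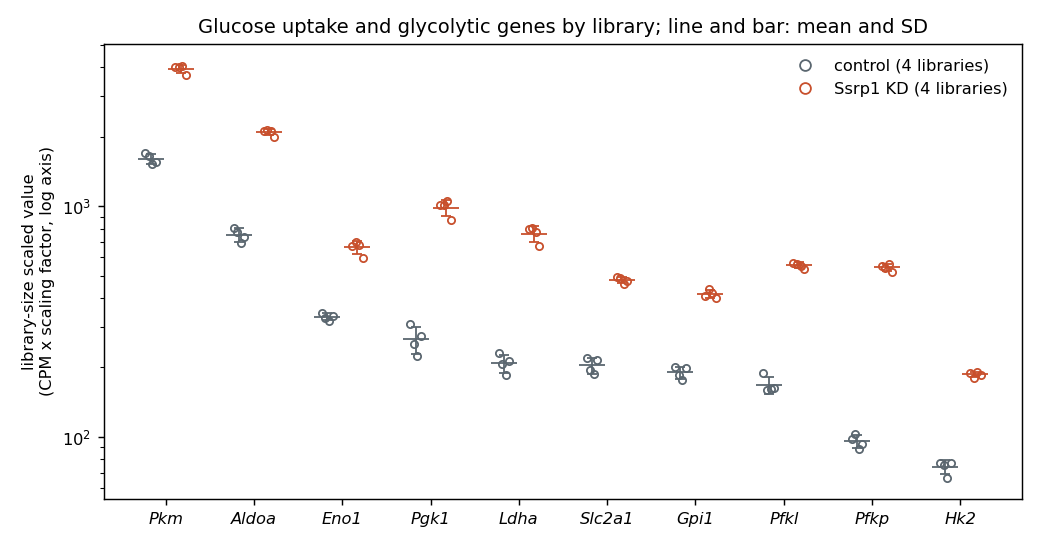
Library-size scaled value (log axis) of the 10 genes in each of 4 control and 4 *Ssrp1* KD libraries, with the group mean and SD, ordered by the control mean. The 2 groups do not overlap for any gene, from *Pkm* (control mean 1605, KD mean 3940) to *Hk2* (74.0 and 186).

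*Slc2a1* (GeneID 20525, chr4:119108745-119137330) encodes the facilitative transporter GLUT1, which carries glucose across the plasma membrane. Its library-size scaled value was 220.1, 195, 187 and 215 in control libraries 1 to 4 and 492, 489, 460.3 and 472 in KD libraries 1 to 4. Even the lowest KD library stood farther above the highest control library than the libraries of either group stood apart, and the log2 fold change was 1.23 ± 0.06 (SE, adjusted p = 1.7e-16). *Hk2* (GeneID 15277, chr6:82725025-82774454), a mitochondria-associated hexokinase, was at 77.2, 75.6, 66.2 and 77.1 in the control libraries and at 189, 179.9, 191 and 186 in the KD libraries. It was the least abundant of the 10 genes in both groups and rose by 1.33 ± 0.06 on the log2 scale (adjusted p = 6.8e-17). *Gpi1* (GeneID 14751, chr7:34201327-34230336) interconverts glucose 6-phosphate and fructose 6-phosphate. It was at 200.4, 185, 176 and 199 in the control and 409, 437, 421 and 398 in the KD libraries, with a log2 fold change of 1.13 ± 0.06 (adjusted p = 5.6e-16).

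The phosphofructokinases catalyse the committed step, and the platelet-type gene changed more than any other of the 10. *Pfkp* (GeneID 56421, chr13:6579874-6649060) was at 97.6, 103, 88.6 and 92.7 in the control libraries and at 552, 542, 562 and 517 in the KD libraries. This was a 5.69-fold difference of the means and a log2 fold change of 2.50 ± 0.06 (adjusted p = 1.7e-22), above 99.9% of all genes. The liver-type *Pfkl* (GeneID 18641, chr10:77986947-78009807) was at 189, 159, 161 and 163 in the control and 569.8, 562, 552 and 533 in the KD libraries. Its log2 fold change was 1.72 ± 0.06 (adjusted p = 3.2e-19). The means of the 2 genes were 95.5 and 168 in the control group and 543 and 554 in the KD group.

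*Aldoa* (GeneID 11674, chr7:126795234-126800994), which cleaves the hexose bisphosphate into triose phosphates, was at 804, 776, 689 and 737 in the control and 2116, 2131, 2121 and 1993 in the KD libraries. Its log2 fold change of 1.48 ± 0.06 (adjusted p = 3.5e-17) was close to the median of the group. *Pgk1* (GeneID 18655, chrX:106187100-106203699), the first ATP-yielding enzyme, was at 308, 252, 225 and 274 in the control and 1015, 1008, 1053 and 869 in the KD libraries, a log2 fold change of 1.90 ± 0.08 (adjusted p = 5.0e-18). It was also the most variable of the 10 within each group, with a coefficient of variation of 13.3% among the control and 8.19% among the KD libraries. *Eno1* (GeneID 13806, chr4:150236708-150248879), which forms phosphoenolpyruvate, was at 346, 327, 319 and 334 in the control and 673, 701, 680.1 and 598 in the KD libraries. Its adjusted p was 1.2e-14, but its log2 fold change of 0.997 ± 0.06 stopped just short of the threshold of 1. Without control replicate 1, control replicate 4 or KD replicate 4 it passed, at 1.02, 1.00 and 1.05.

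*Eno1* has a near-identical copy, *Eno1b*, with which reads can be exchanged in counting, so that the split between them is uncertain. *Eno1* took 36.6% to 37.7% of their summed value in the control and 35.4% to 36.1% in the KD libraries. The sum was 894 ± 29.0 (SD, n = 4) in the control group and 1854 ± 120.4 in the KD group, a 2.07-fold difference. The enzymes of glycolysis also have many processed pseudogenes, and the share of reads that these took is unknown.

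*Pkm* (GeneID 18746, chr9:59656576-59679372), which makes pyruvate and ATP, was the most abundant of the 10. It was at 1704, 1644, 1524 and 1549 in the control and 3997, 3997, 4067 and 3701 in the KD libraries, a log2 fold change of 1.30 ± 0.07 (adjusted p = 7.0e-15). These are values of the whole gene, and the M1 and M2 splice forms were not separated. *Ldha* (GeneID 16828, chr7:46842274-46855627), which turns pyruvate into lactate, was at 230.2, 206, 185 and 213 in the control and 792, 804, 773 and 674 in the KD libraries. Its log2 fold change was 1.86 ± 0.07 (adjusted p = 6.1e-19). In the order of the changes, *Pfkp* came first, followed by *Pgk1*, *Ldha*, *Pfkl*, *Aldoa*, *Hk2*, *Pkm*, *Slc2a1*, *Gpi1* and *Eno1*. On the library-size scale, neighbours whose within-library ratio overlapped between the groups, and whose order is therefore not resolved, were *Pgk1* and *Ldha*, *Ldha* and *Pfkl*, *Hk2* and *Pkm*, *Pkm* and *Slc2a1*, and *Slc2a1* and *Gpi1*.

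To compare the genes with one another, the values were divided by exon length. In the control group *Pkm* led with a level of 618 ± 32.2 per kilobase (SD, n = 4), followed by *Aldoa* (412 ± 27.4), *Eno1* (187 ± 6.35), *Pgk1* (147 ± 19.5), *Ldha* (108 ± 9.65), *Slc2a1* (79.3 ± 6.17), *Gpi1* (66.6 ± 4.10), *Pfkl* (45.2 ± 3.79), *Pfkp* (24.0 ± 1.57) and *Hk2* (13.4 ± 0.956). From aldolase on, the enzymes thus stood above the transporter and the enzymes before them, and the 4 control libraries of each gene lay above those of the next. The median of the 10 was 93.7 per kilobase, against 8.05 for all genes. In the KD group all libraries of *Pgk1* (547 per kilobase) lay above those of *Eno1* (373). The mean of *Ldha* (394) was also above that of *Eno1*, but the libraries of these genes overlapped. *Pfkl* (149) and *Gpi1* (146) could no longer be told apart because their libraries overlapped. The place of *Eno1* in both orders is uncertain because its split from *Eno1b* is. The summed level of *Eno1*, *Eno1b*, *Eno2* and *Eno3* was 522 ± 15.0 per kilobase in the control and 1075 ± 68.9 in the KD group.

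The size of the increase depended on how the libraries were scaled, whereas its direction did not. With the spike-in scaled values that were deposited alongside, all 10 genes were called higher, against 48.1% of all genes, and the call split was 7394 higher to 1082 lower in place of 1242 to 3163. The median log2 fold change of the 10 was then 2.43 while that of all genes was 0.95. The difference was 1.47, against 1.44 with the library-size scaling. A single factor per library moves all genes alike apart from the pseudocount, so this likeness was fixed in advance. *Pfkp*, for example, was at 59.4 to 83.0 in the control libraries and at 508, 1004, 908 and 778 in KD libraries 1 to 4 on the spike-in scale. KD library 1 was the lowest of its group for all 10 genes on this scale, yet still above every control library. Its factor from the library-size to the spike-in scale was 0.921, the lowest of the KD libraries. This factor applies to all genes, so the low place of KD library 1 is not particular to these 10. The share of all genes with such a separation was not counted on the spike-in scale.

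After quantile normalisation only *Pfkp*, *Pgk1*, *Ldha* and *Pfkl* were called higher, 4 of 10 against 9.87% of all genes, with a split of 1518 higher to 1656 lower. The median log2 fold change of the 10 was 0.81 and that of all genes 0.05, a difference of 0.76. The smallest of the 10 was 0.31 for *Eno1*. In plain CPM these genes and *Aldoa* were called, 5 of 10 against 2.23%, with a split of 343 to 4696. There the median of the 10 was 0.97 and that of all genes −0.45. The adjusted p of the 10 genes was at most 7.7e-07 under quantile normalisation, where 33.7% of all genes were higher with an adjusted p below 0.01, and at most 2.4e-11 in plain CPM, where 18% were. A level-dependent shift was present in the library-size values: among the 4036 genes with a control mean of at least 50, a level that all 10 genes exceed, the median log2 fold change was 0.34 and 11.4% were called higher. After quantile normalisation the median of those genes was −0.07.

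**Figure D2:**
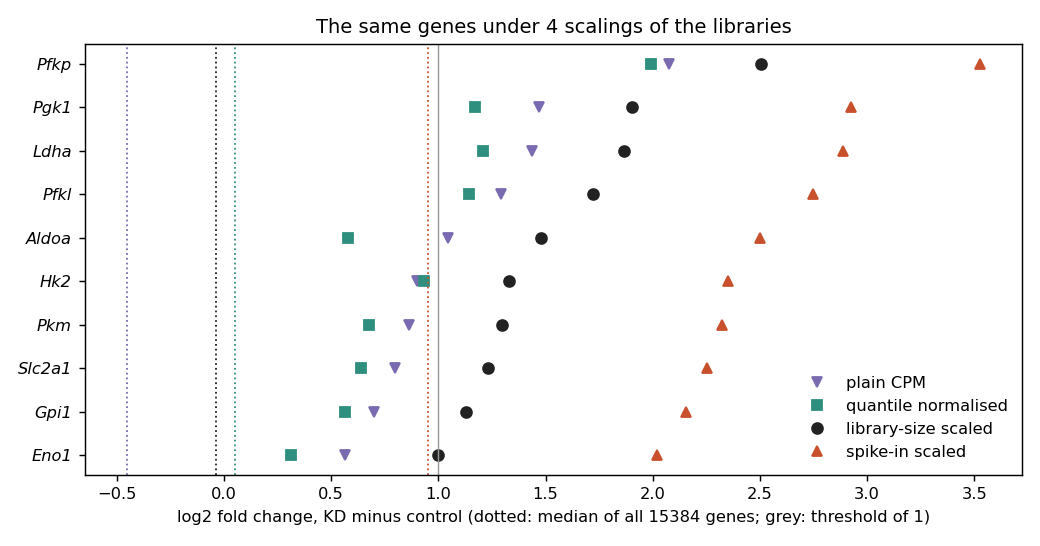
Log2 fold change (KD minus control) of the 10 genes under 4 scalings of the same 8 libraries, with the median of all 15384 genes for each scaling as a dotted line and the threshold of 1 in grey. All points lie above 0 and to the right of the median of their scaling, and *Pfkp* is the farthest to the right in each, from 1.99 after quantile normalisation to 3.53 with the spike-ins.

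Ratios between paralogues within a library do not depend on a single scaling factor for that library, but they do change with a normalisation that acts by level, such as the quantile method. They were compared for 6 pairs by an exact two-sided permutation test, which cannot go below p = 0.029 with 4 libraries against 4. The groups did not overlap for 5 pairs, each with an exact p of 0.029 and an adjusted p of 0.034. After quantile normalisation, added for the ratios after seeing the data, these pairs kept their direction and did not overlap. The log2 ratio of *Pfkp* to *Pfkl* moved from −0.81 ± 0.14 (SD, n = 4) to −0.03 ± 0.04. In terms of level per kilobase, *Pfkp* made up 27.5% to 30.6% of the phosphofructokinase transcripts in the control libraries and 43.7% to 45.1% in the KD libraries. The muscle-type *Pfkm* went from 16.9% ± 1.78 to 7.53% ± 0.328. The summed phosphofructokinase level was 83.2 ± 4.46 per kilobase in the control group and 309 ± 8.06 in the KD group.

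*Ldha* gained on *Ldhb*, whose product favours the reverse reaction from lactate to pyruvate, with a log2 ratio of 2.48 ± 0.14 in the control group and 3.9 ± 0.09 in the KD group, a change of 1.42 that was 0.97 after quantile normalisation. Its share of the pair per kilobase was 76.7% to 80.3% in control and 90.4% to 91.6% in KD. The ratio of *Hk2* to *Hk1* moved from 0.56 ± 0.21 to 1.36 ± 0.11, and the share of *Hk2* in this pair from 54.8% ± 3.62 to 67.8% ± 1.65. *Slc2a1* remained below the more abundant transporter of these libraries, *Slc2a3* (GLUT3), in both groups. Its share of the pair was 22.6% to 23.8% in the control and 33.8% to 36.3% in the KD libraries, and the log2 ratio rose by 0.84.

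The ubiquitous *Eno1* rose relative to the neuronal *Eno2*, from a log2 ratio of 4.46 ± 0.30 to 6.41 ± 0.16. The size of this change depended on the normalisation, at 1.94 on the library-size scale and 0.78 after quantile normalisation. *Aldoa* to *Aldoc* was the exception. Its log2 ratio was 6.35 ± 0.32 in the control and 5.92 ± 0.10 in the KD group, the libraries overlapped, and the test gave an exact p of 0.057. The share of *Aldoc* in the pair per kilobase was 1.25% ± 0.276 and 1.71% ± 0.116. Without control replicate 2 the exact p of this pair was 0.029. After quantile normalisation its change was −1.71 in place of −0.42, the libraries did not overlap, and the exact p was 0.029.

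**Figure D3:**
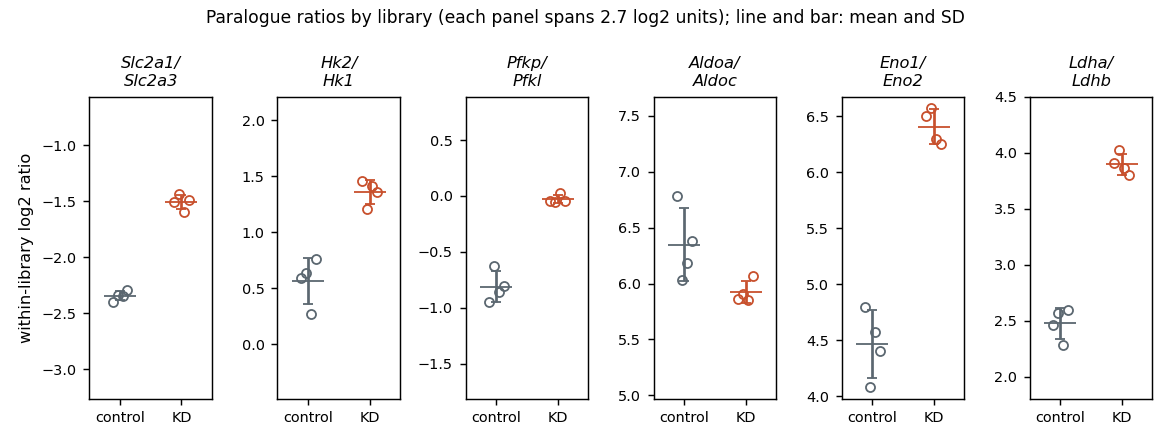
Within-library log2 ratio of each pair of paralogues in the 4 control and 4 KD libraries, with mean and SD, all panels spanning the same number of log2 units. The KD libraries lie above the control libraries in 5 panels, and for *Aldoa*/*Aldoc* the groups overlap on this library-size scale.

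Among the other enzymes of the glycolytic steps, 19 of 22 listed genes had a value. Of these, 6 were called higher, 4 lower and 9 neither, and the median log2 fold change was 0.44. The split was 14 higher to 2 lower with the spike-ins, 6 to 2 after quantile normalisation and 2 to 5 in plain CPM. Of all genes, 8.07% were called higher and 20.6% lower on the library-size scale, and 48.1% and 7.03% with the spike-ins. The shares were 9.87% and 10.8% after quantile normalisation and 2.23% and 30.5% in plain CPM. They stand equally beside the counts of the lists that follow. Those called higher included *Tpi1*, which interconverts the triose phosphates, *Gapdh*, *Pgam1* and *Eno1b*. *Tpi1* was at 159, 147, 133 and 138 in the control and 860.5, 836, 845 and 727 in the KD libraries, with a log2 fold change of 2.50 ± 0.06 (limma adjusted p = 7.7e-22), close to that of *Pfkp*. *Gapdh*, a gene often used as a reference in quantitative PCR, was at 490.5 to 518 in the control and 1057 to 1120 in the KD libraries (log2 fold change 1.12 ± 0.06 with the library-size scaling, 0.29 after quantile normalisation). The 4 genes called lower, *Hkdc1*, *Gapdhs*, *Pklr* and *Ldhd*, had control means between 5.31 and 11.4. *Hkdc1* had the largest decrease, from 8.17 to 15.8 in the control to 1.61 to 2.85 in the KD libraries. On the library-size scale, the form with the highest control level per kilobase was called higher at 10 of 11 steps (*Gpi1*, *Pfkl*, *Aldoa*, *Tpi1*, *Gapdh*, *Pgk1*, *Pgam1*, *Eno1b*, *Pkm* and *Ldha*). The exception was the first, the phosphorylation of glucose, where the ADP-dependent glucokinase *Adpgk* (20.2 per kilobase) stood above *Hk2* and had a log2 fold change of 0.21 ± 0.07. Such forms were called higher at 4 steps after quantile normalisation, at 5 in plain CPM and at 11 with the spike-ins. The forms were picked for a high control level. On the library-size scale 11.4% of genes with a control mean of at least 50 were called higher. *Gpi1*, *Pfkl*, *Aldoa*, *Pgk1*, *Pkm* and *Ldha* belong to the 10 genes, so these counts repeat part of those above. The enolase step was counted through *Eno1b*, whose split from *Eno1* is uncertain. *Eno1* itself was not called on the library-size scale.

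The transporters differed from one another. Of 16 further hexose and lactate transporters, 11 had a value, and 1 was called higher and 4 lower (5 and 2 with the spike-ins, 1 and 2 after quantile normalisation). *Slc16a3*, the lactate exporter MCT4, went from 24.6 to 27.7 in the control libraries to 161 to 194 in the KD libraries, a log2 fold change of 2.71 ± 0.07 (limma adjusted p = 7.7e-22). *Slc16a1* (MCT1) had a log2 fold change of 0.86 and its chaperone *Bsg* one of 0.51, neither past the fold threshold. *Slc2a9*, a urate and hexose carrier, had the largest decrease, from 10.5 to 16.5 in the control to 0.821 to 1.45 in the KD libraries. *Slc2a3* had a log2 fold change of 0.39 with the library-size scaling and −0.48 after quantile normalisation.

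Of the 5 enzymes that set the level of the fructose bisphosphate activator of phosphofructokinase, none was called higher and 2 were called lower, *Pfkfb2* (log2 fold change −1.07 ± 0.11) and *Pfkfb4*. *Pfkfb4* was at 23.0 to 31.2 in the control and 7.54 to 10.8 in the KD libraries. With the spike-ins the split turned, to 3 higher and none lower, and *Pfkfb2* had a log2 fold change of −0.07, whereas after quantile normalisation and in plain CPM it was again none to 2. In the pentose phosphate pathway, which branches off after hexokinase, 1 of 8 genes was called higher, the transketolase *Tkt* (213 ± 12.0 in control, 631 ± 15.3 in KD, SD, n = 4), and none lower. The oxidative enzymes *G6pdx* and *Pgd* had log2 fold changes of 0.33 and 0.50. In this pathway 5 genes were called higher with the spike-ins and none after quantile normalisation.

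At the entry of pyruvate into mitochondria, 4 of 15 genes were called higher and 1 lower (12 and none with the spike-ins, 2 and none after quantile normalisation). *Pdk1*, the kinase that inhibits pyruvate dehydrogenase, had the largest increase of any gene in these lists, from 26.9 to 37.8 in the control libraries to 317 to 340.3 in the KD libraries (log2 fold change 3.34 ± 0.09, limma adjusted p = 1.1e-21). *Pdk2* moved the other way, by −1.83 ± 0.20. *Pdha1*, the catalytic subunit that these kinases phosphorylate, the pyruvate carrier subunit *Mpc1* and the pyruvate dehydrogenase phosphatase *Pdp2* were also called higher, with log2 fold changes of 1.45, 1.29 and 1.05. In the citric acid cycle 2 of 15 genes were called higher, *Sdhb* (1.36 ± 0.09) and *Sucla2* (1.30 ± 0.06), and none lower, with a list median of 0.78. This count was 14 with the spike-ins, 1 after quantile normalisation and 0 in plain CPM.

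Of the 4 gluconeogenic genes with a value, *Fbp1*, which reverses the phosphofructokinase step, was called lower (23.2 ± 1.27 in control, 6.82 ± 0.759 in KD) and *Pck2*, the mitochondrial form of phosphoenolpyruvate carboxykinase, higher (16.7 ± 2.02 and 38.4 ± 1.69). After quantile normalisation 1 of the 4 was called higher and 2 lower, and with the spike-ins 1 higher and none lower. Of 12 regulators known to act on glycolytic genes, none was called higher and 3 were called lower, *Mlxipl* (log2 fold change −1.16), *Foxk1* (−1.14) and *Lin28b* (−1.20). *Lin28a* and *Lin28b* in this list encode RNA-binding proteins, and the others transcription factors. The 3 of 12 called lower stand against 20.6% of all genes, and the split was 5 higher and none lower with the spike-ins, none and 2 after quantile normalisation, and none and 5 in plain CPM. *Hif1a*, which encodes the oxygen-regulated subunit of the hypoxia-inducible factor, had a log2 fold change of 0.40 and *Myc* one of −0.22, both short of the threshold. *Mycn*, at 45.0 ± 7.40 in control and 89.0 ± 1.67 in KD, missed it narrowly at 0.99. No gene of these lists that was called under the library-size scaling turned its direction under the spike-in, quantile or plain scaling.

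**Figure D4:**
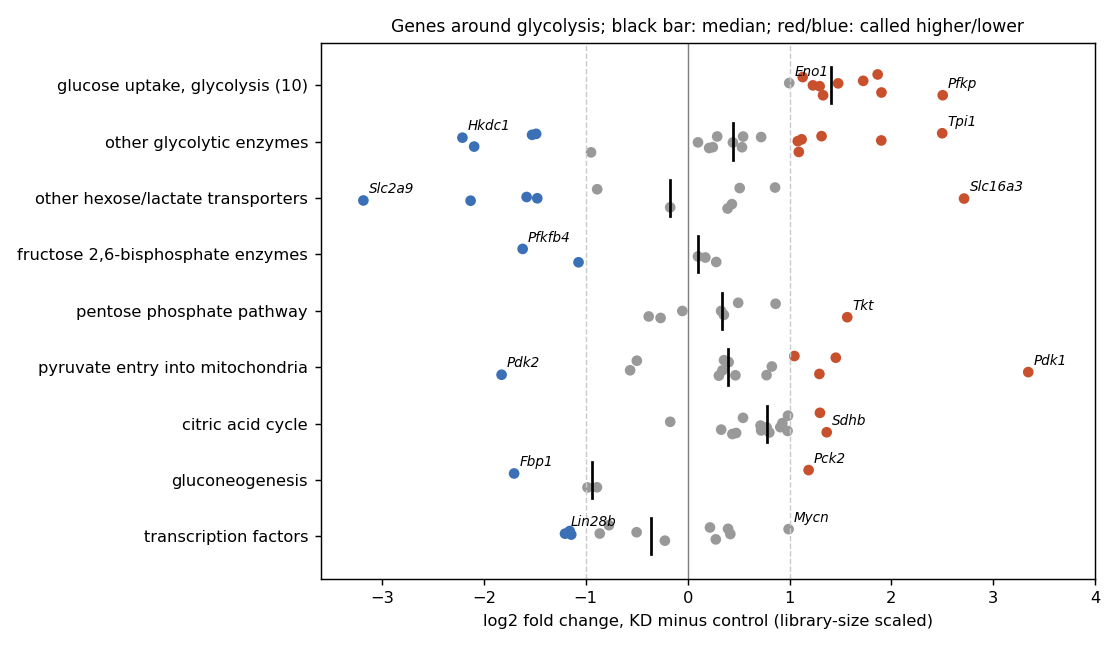
Log2 fold change (KD minus control, library-size scaled) of each gene in the lists around glycolysis, with the list median as a black bar, called genes in red (higher) or blue (lower) and the threshold as dashed lines. The 10 genes lie between 0.997 and 2.50, *Pdk1* is farthest to the right at 3.34 and *Slc2a9* farthest to the left at −3.18. The row of transcription factors also holds *Lin28a* and *Lin28b*, which encode RNA-binding proteins.

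The 5 genes outside the set whose centred log2 profile over the 8 libraries lay nearest to the mean profile of the 10 genes (Euclidean distance) were *Hist1h1b*, *Hist1h2bp*, *Hist1h2bk*, *C330021F23Rik* and *Hist1h2bl*, at distances of 0.07 to 0.12 log2 units. The histone genes are members of multicopy families, so their counts are uncertain. Within the set *Aldoa* was nearest to the mean profile, at 0.12, and *Pfkp* farthest, at 1.36.

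Chromatin-associated RNA of untreated mESCs was available from 2 libraries with 3441643 and 3393923 counts, of which 79.4% and 75% fell on small nucleolar, ribosomal and small nuclear RNA genes. The 10 genes together had 499 and 810 counts, or 145 and 239 CPM. *Pkm* had 189 and 264 counts, *Aldoa* 67 and 107, and *Pfkp* 47 and 106. *Pgk1* was the lowest with 6 and 21. In CPM per kilobase, *Pkm* was again first, at 21.1 and 29.9, and *Aldoa* next, at 10.7 and 17.3. *Ldha* followed *Aldoa*, at 6.77 and 9.77. *Pgk1*, which stood above *Ldha* in total RNA, was last in the first library at 0.968, but in the second its 3.44 lay above *Pfkl* (3.25) and *Hk2* (2.73). Each gene was higher in CPM in the second library, by a factor of 1.36 (*Hk2*) to 3.55 (*Pgk1*), so only the order within a library can be read. The mean levels lay above those of 81.2% (*Pgk1*) to 99.2% (*Pkm*) of the genes with a total RNA value. Chromatin RNA of KD cells was not analysed here.

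In the authors' own averages over libraries, given on a log2 scale without an error, the 10 genes ranged from 7.20 (*Hk2*) to 11.2 (*Pkm*) in the control and KD set, where the median gene was at 4.62. In the set of NPCs and mESCs the corresponding range was 6.17 (*Pfkp*) to 10.8 (*Pkm*), with a median gene at 4.51. *Pfkp* was above *Hk2* alone in the first set, at 7.62, and below all the others in the second. These averages pool both groups of each set and say nothing of a difference between them. The series also lists control and KD libraries without spike-ins, and whether the first set is these or the libraries used above was not established. The first set covered 14340 genes. In it *Pgk1* (8.38) stood below *Ldha* (9.19), whereas *Pgk1* was the higher of the pair in each of the 8 libraries used above.

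FACT peaks were called by the authors from the replicates of each subunit together and assigned to the nearest gene. A single list per subunit was used here, so agreement between replicates was not examined. SSRP1 peaks were assigned to 6 of the 10 genes, against 36% of all genes and 49.9% of the genes with a control mean of at least 50. SUPT16 peaks were assigned to 5, against 18.6% and 30.3%. *Slc2a1* had 11 SSRP1 peaks and 1 SUPT16 peak, a number of SSRP1 peaks reached by 36 of 6501 bound genes. *Pkm* had 7 peaks of each subunit. *Eno1* had 3 SSRP1 peaks, *Ldha* 2 SSRP1 peaks and 1 SUPT16 peak, *Pfkl* 1 of each and *Aldoa* 2 SUPT16 peaks. No peak was assigned to *Hk2*, *Gpi1* or *Pgk1*, and the single SSRP1 peak of *Pfkp* (chr13:6728583-6729072) lay 79812 bp upstream of the start site of its promoter window. Of the 4 genes called higher under each of the scalings, *Pgk1* had no peak, *Pfkp* a distant one, and *Ldha* and *Pfkl* peaks of both subunits. A link between peaks and changes was not tested.

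The peaks of *Slc2a1* were spread over and around the gene. A peak of 784 bp (chr4:119108319-119109102) covered the start site and reached into coding sequence, 4 lay in introns, 3 upstream as far as 36197 bp from the start and 3 beyond the 3′ end. Its SUPT16 peak (chr4:119121801-119122010) was intronic and overlapped an SSRP1 peak. On *Pkm*, both subunits had a peak over the first annotated start (SSRP1 at chr9:59656521-59657696, SUPT16 at chr9:59656031-59657080). An SSRP1 peak of 2646 bp (chr9:59678277-59680922), the longest at any of the 10 genes, reached from coding sequence past the 3′ end of the gene. There 2 SUPT16 peaks overlapped it.

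Promoters were taken as windows from 250 bp before to 50 bp after a start in RefSeq GRCm38.p6. Not all annotated starts have such a window, among them the outermost starts of *Ldha*, *Pfkp* and *Aldoa*, and 11621 of the 15384 genes have at least 1. Over these windows SSRP1 peaks were found at 5 of the 10 genes (*Slc2a1*, *Pfkl*, *Eno1*, *Pkm* and *Ldha*), against 19.1% of the genes with a window. SUPT16 peaks were found at 2 genes, *Pkm* and *Ldha*, against 9.88%. Both of these also had an SSRP1 peak there, 2 of 10 against 5.21%, and 5 of 10 had a peak of either subunit, against 23.8%. At *Pfkl* the SUPT16 peak (chr10:78009401-78009610) began 197 bp inside the gene, in its coding sequence and within the SSRP1 peak. Of the genes with a control mean of at least 50, which all 10 exceed, 29.7% had an SSRP1 and 16.7% a SUPT16 peak over a promoter.

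**Figure D5:**
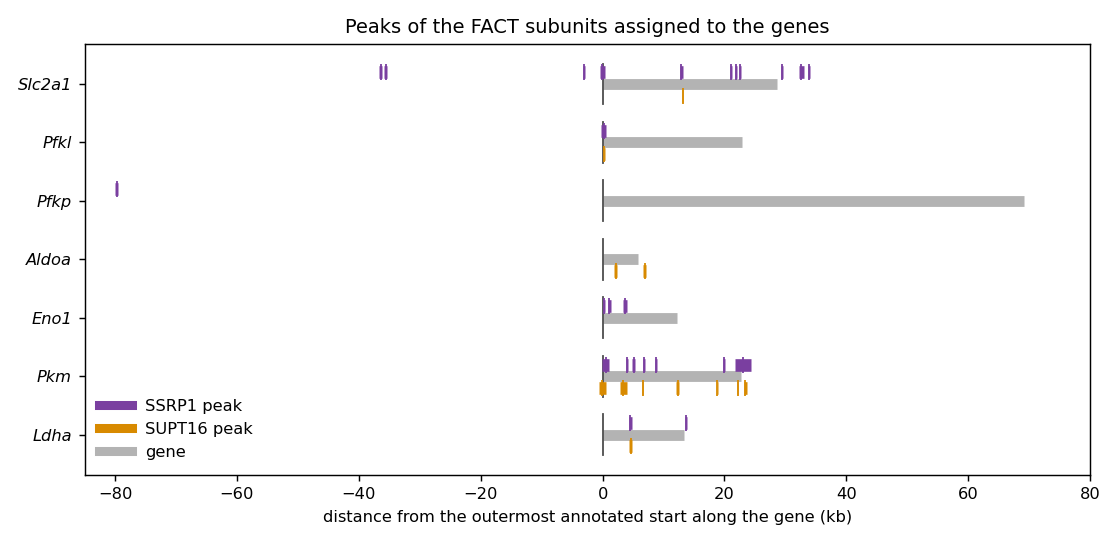
Position of the SSRP1 and SUPT16 peaks assigned to 7 of the 10 genes, in kb from the outermost annotated start along the direction of transcription, with the gene in grey. Peaks of both subunits meet at the start of *Pfkl* and at both ends of *Pkm*, the 11 SSRP1 peaks of *Slc2a1* extend on both sides of the gene, and the SSRP1 peak of *Pfkp* lies far upstream.

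*Ldha* has 2 of these promoter windows, and they differed in both peaks and sequence. The peaks of SSRP1 (chr7:46846549-46847136) and SUPT16 (chr7:46846661-46847150) covered the downstream start, and neither reached the window of the upstream start. The upstream window held the letters CACGTG, the E-box bound by MYC-type and MLX-type factors, at 2 places, and a further match to ACGTG, the core of hypoxia response elements. The downstream window held neither. Both windows are shown to set the bound against the unbound start, from the RefSeq sequence of GRCm38.p6, plus strand, with ACGTG on either strand in capitals (CACGT is the same core on the opposite strand, and CACGTG holds both).

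*Ldha* upstream start, chr7:46845554-46845853: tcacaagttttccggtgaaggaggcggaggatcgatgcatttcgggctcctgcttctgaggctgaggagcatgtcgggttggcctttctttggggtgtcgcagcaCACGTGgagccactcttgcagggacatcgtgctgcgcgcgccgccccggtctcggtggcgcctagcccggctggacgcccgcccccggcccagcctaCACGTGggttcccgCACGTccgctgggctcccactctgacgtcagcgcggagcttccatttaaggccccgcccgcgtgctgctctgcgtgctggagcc
*Ldha* downstream start, chr7:46846832-46847131: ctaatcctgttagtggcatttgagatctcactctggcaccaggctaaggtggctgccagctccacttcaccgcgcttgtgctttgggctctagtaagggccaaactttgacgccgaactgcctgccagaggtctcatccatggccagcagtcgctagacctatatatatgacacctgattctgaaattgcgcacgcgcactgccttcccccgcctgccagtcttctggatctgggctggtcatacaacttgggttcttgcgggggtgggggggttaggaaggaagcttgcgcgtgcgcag

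The letters ACGTG were found on either strand in 7 of 16 windows of the 10 genes, belonging to 6 genes. Of all 32851 windows, 19.6% held them. CACGTG was found in the upstream window of *Ldha* alone, and in 7.15% of all windows. The 2 later windows of *Aldoa* overlap and share 1 match, so windows are not independent. Genes with a match included some with peaks and some without. To show this, the windows of *Slc2a1* (plus strand) and the downstream start of *Pkm* (plus strand), both under SSRP1 peaks, stand beside those of *Hk2* (minus strand) and *Pgk1* (plus strand), which lay under no peak, written 5′ to 3′ along the gene with the same capitals.

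*Slc2a1*, chr4:119108495-119108794: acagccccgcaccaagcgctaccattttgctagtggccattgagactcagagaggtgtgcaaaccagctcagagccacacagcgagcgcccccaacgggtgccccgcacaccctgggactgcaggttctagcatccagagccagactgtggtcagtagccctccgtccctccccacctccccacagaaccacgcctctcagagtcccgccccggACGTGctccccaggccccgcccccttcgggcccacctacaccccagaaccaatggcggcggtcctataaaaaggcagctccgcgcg
*Pkm* downstream start, chr9:59656977-59657276: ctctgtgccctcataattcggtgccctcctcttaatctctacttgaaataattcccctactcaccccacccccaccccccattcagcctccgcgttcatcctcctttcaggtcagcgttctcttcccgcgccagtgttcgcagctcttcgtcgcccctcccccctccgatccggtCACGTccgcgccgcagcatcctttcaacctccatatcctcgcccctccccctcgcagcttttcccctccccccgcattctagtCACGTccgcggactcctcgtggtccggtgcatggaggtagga
*Hk2*, chr6:82774405-82774704: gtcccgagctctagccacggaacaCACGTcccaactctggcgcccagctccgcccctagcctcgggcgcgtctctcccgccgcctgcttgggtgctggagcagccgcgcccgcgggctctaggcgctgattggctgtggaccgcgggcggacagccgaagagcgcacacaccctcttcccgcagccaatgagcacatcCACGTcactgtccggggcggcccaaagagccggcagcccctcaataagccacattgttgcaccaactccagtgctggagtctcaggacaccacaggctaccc
*Pgk1*, chrX:106186850-106187149: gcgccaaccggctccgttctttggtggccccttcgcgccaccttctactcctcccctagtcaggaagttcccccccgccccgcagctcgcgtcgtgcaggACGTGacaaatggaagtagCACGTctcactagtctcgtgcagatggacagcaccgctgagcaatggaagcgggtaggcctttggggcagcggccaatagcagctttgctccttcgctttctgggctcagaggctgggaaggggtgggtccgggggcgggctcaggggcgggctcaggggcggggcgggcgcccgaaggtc

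*Slc2a1* had 1 match and *Pkm*, *Hk2* and *Pgk1* had 2 each. No match to ACGTG was found at *Eno1*, *Gpi1*, *Pfkl* or *Pfkp*, the last of which had the largest change. A match describes these letters only and was not tested against binding.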

How the data were processed

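Libraries were grouped by their labels, and the members and gene lists were chosen with earlier results of these data known. Total RNA was sequenced with a ribosomal depletion kit that keeps strand, aligned to mm10 with STAR and counted with featureCounts. The authors deposited 2 sets of values per gene and library (signal): one scaled to ERCC spike-ins and one to library size, the latter carrying TMM factors (shown by the column sums, which follow recomputed factors). Dividing by the value of 1 read gave whole reads, within 0.1, for 100% of values. The authors also deposited log2 means over libraries, raw counts of chromatin RNA (STAR 2.4.1b) and peak positions (Bowtie2 2.2.6, PePr, nearest gene); their fold changes and p-values were not used.

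Log2(library-size value + 0.5) was tested with limma 3.58.1 (trend) in R 4.3.3 across 15384 genes, with Benjamini-Hochberg adjustment. The fold changes are therefore on the log2(value + pseudocount) scale, which understates the change of low genes. No filter on low values was applied, and all 10 members had a value in every library. edgeR 4.0.16 and DESeq2 1.42.0 were run on recovered reads as alternatives. On simulated reads with 200 genes changed 4-fold, limma recovered 100% with 0 false calls. Equal numbers of well-covered genes were raised and lowered there without a level-dependent shift, so this does not test the choice of scaling. Paralogue ratios were tested by exact permutation over libraries and adjusted over 6 pairs, and recomputed after quantile normalisation (chosen after seeing the data). Symbols came from the chromatin RNA table for 15241 genes, and exon lengths likewise. Peaks and promoter windows overlapped when they shared at least 1 bp. Named were the 10 members, genes of the lists (counts called, and the largest change in each direction), all glycolytic and transporter genes as needed, and the 5 most similar genes. Beyond the rule, *Mycn*, *Hif1a*, *Myc*, *G6pdx*, *Pgd*, *Pfkfb2*, *Mpc1*, *Pdha1*, *Pdp2*, *Sucla2*, *Mlxipl* and *Foxk1* were named after their values were seen. Per the study's methods the 4 libraries of each group are biological replicates. No 2 replicates agreed within sampling noise (chi-square per degree of freedom 1.88 to 6.62).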

Additional observations from a re-analysis of the deposited data

Results flagged for a closer look

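Of 32 groups of 4 libraries (10 genes and 6 paralogue ratios in control and KD), 4 held a library whose gap to the nearest other exceeded the 95% critical value of Dixon's test, and chance flags about 1 group in 20. *Hk2* was at 66.2 in control library 3 and at 75.6 to 77.2 in the other control libraries. *Pfkl* was at 189 in control library 1 and at 159 to 163 in the others. *Aldoa* was at 1993 in KD library 4 and at 2116 to 2131 in the others. The log2 ratio of *Pfkp* to *Pfkl* was 0.025 in KD library 3 and −0.05 to −0.04 in the others. Each of these libraries stayed on its group's side of the other group. No cause was tested.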

How the results depend on the processing

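All 10 members kept their direction under all alternatives run. The count of members called higher was 9 as reported, 4 after quantile normalisation, 5 in plain CPM (chosen after seeing the data), and 9 to 10 when single libraries were left out. Genes called numbered 4405 (1242 higher, 3163 lower). With the spike-in scaling they were 8476 (7394 and 1082), for genes with a mean value of at least 10 they were 2103 (961 lower), with the treat method of limma 2097 (517 and 1580), and with the adjusted p alone 11192 (5447 and 5745). Genes called lower numbered 1656 after quantile normalisation, and genes called higher numbered 343 in plain CPM. *Gpi1* lost its call with treat, and *Eno1* gained one with DESeq2, DESeq2 size factors, spike-ins, the adjusted p alone and thinned reads. The cause was not tested, except that the mean filter leaves fewer genes and treat and the adjusted p alone move the fold threshold. Leaving out single libraries gave 4254 to 4635 called genes, and changes of the log2 ratio of 0.81 to 0.87 for *Slc2a1*/*Slc2a3*, 0.70 to 0.86 for *Hk2*/*Hk1*, 0.73 to 0.84 for *Pfkp*/*Pfkl*, −0.53 to −0.28 for *Aldoa*/*Aldoc*, 1.82 to 2.06 for *Eno1*/*Eno2* and 1.36 to 1.46 for *Ldha*/*Ldhb*. After quantile normalisation the *Aldoa*/*Aldoc* change was −1.71 (exact p = 0.029), past the threshold, and the other changes were 1.12, 0.69, 0.85, 0.78 (*Eno1*/*Eno2*) and 0.97 in the same order. Replicate numbers did not pair the libraries (same-number correlations −0.06 to 0.04, and 2 of the 4 KD libraries but none of the 4 control libraries correlated best with their own number). With the replicate block the count of called genes was 4405 and the ratio changes were the same values, 0.84, 0.80, 0.78, 1.94 and 1.42 for the 5 pairs past the threshold, but the exact sign-flip test over 4 pairs cannot go below p = 0.125. The members' chromatin RNA level was 192 CPM, 246 over genes with a total RNA value, and 145 and 239 in the single libraries. Members with a peak over a promoter numbered 5, with 6 for starts within 1000 bp of a peak and 4 for peaks of at least 500 bp.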
